A study of Mus musculus with 2 samples.

Results

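Tuft cells are rare chemosensory cells of the intestinal epithelium that use a taste-like signalling cascade to sense luminal stimuli and that release a cytokine and eicosanoids to immune cells of the mucosa. They arise from crypt progenitors under the transcription factor Pou2f3. The 8 genes described here were chosen by name as known tuft cell genes, of 22380 protein-coding genes in the annotation: the transcription factors Pou2f3 and Gfi1b, the cation channel Trpm5, the kinase Dclk1 that serves as the usual tuft cell marker, the cytokine Il25, and the eicosanoid enzymes Ptgs1 (cyclooxygenase-1), Hpgds (prostaglandin D synthase) and Alox5 (5-lipoxygenase).

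Open chromatin was mapped by ATAC-seq, in which a transposase cuts accessible DNA, in enteroids, which are epithelial cultures, grown in this case from mouse ileal crypts. The control library came from Taf4 lox/lox enteroids (labelled WT) and the Taf4-inactivated library from Taf4 lox/lox::VilCreERT2 enteroids, in which a tamoxifen-inducible Cre under the Villin promoter deletes the floxed alleles in epithelial cells. Taf4 encodes a component of TFIID, the factor that helps to place RNA polymerase II at promoters. Both cultures were of strain C57Bl6/129sv, came from mice 4 months old, carried the floxed alleles and received 1 µM 4-hydroxytamoxifen (4-OHT) for 3 days, and by its genotype the control had no Cre. There was 1 library per genotype. No difference below therefore has a replicate check or a p-value between genotypes. The libraries were made from whole enteroids, so the cells that gave a peak are not known. Fewer tuft cells in a culture, less open chromatin per tuft cell and changes in other cells cannot be told apart. Both lists held a peak at the start site of Taf4 (annotated as Taf4a), which does not report whether the floxed exons were deleted.

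A peak within 1 kb of any annotated start site of a gene is called a start site peak, and every other peak in the gene body or within 50 kb of it a distal peak. By this rule 77 of 90445 control peaks and 66 of 71282 peaks of Taf4-inactivated enteroids belonged to the tuft cell genes. Each peak carries the fold enrichment over the background of its own library. As that fold is not on a common scale, it is given mainly as a percentile, the share of peaks of the same list with an equal or lower fold. By an estimate from the peaks themselves, the Taf4-inactivated library had 60.5% of the depth of the control library, and a shallower library needs a higher fold for a peak to be called. A percentile depends on which peaks a list holds, so a rank difference is not by itself a change in signal. Their part due to list length and depth was not tested. For shared peaks, the −log10 p of the control peak was therefore also recomputed at the depth of the other library, with its fold kept. This is an approximation, since the deposited values are averages over each peak. Positions are on mm9.

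The sequences under the peaks that the results turn on come first, with matches to short recognition letters, searched on both strands, in capitals. The POU octamer, bound by factors such as Pou2f3, was searched as ATGCAAAT. The AP-1 element was searched as TGANTCA, that of GATA factors as AGATAA, and that of HNF4, the hepatocyte nuclear factor, as CAAAGTCCA. The E-box of bHLH factors was searched as CAGCTG, the GFI1 element as AAATCAC, and the element of the homeobox factor CDX2 as CCATAAA. In promoters the TATA box (searched as TATAAA), the GC box (searched as GGGCGG) and the nuclear factor Y box (searched as CCAAT) were added. No match in the printed windows overlapped another. The first set is shown because it holds the octamer in peaks present in both libraries. It consists of 300 bases of the peak about 11 kb upstream of Trpm5 (chr7:150291385-150291684) and of 300 bases of the peak about 17 kb upstream of Ptgs1 (chr2:36069076-36069375). Both windows are on the plus strand and outside annotated exons.
Trpm5 upstream peak: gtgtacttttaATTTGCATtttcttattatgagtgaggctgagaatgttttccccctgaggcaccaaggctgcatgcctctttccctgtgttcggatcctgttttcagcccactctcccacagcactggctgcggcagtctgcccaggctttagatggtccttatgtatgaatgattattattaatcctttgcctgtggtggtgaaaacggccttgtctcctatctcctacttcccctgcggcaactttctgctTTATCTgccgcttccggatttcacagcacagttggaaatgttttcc
Ptgs1 upstream peak: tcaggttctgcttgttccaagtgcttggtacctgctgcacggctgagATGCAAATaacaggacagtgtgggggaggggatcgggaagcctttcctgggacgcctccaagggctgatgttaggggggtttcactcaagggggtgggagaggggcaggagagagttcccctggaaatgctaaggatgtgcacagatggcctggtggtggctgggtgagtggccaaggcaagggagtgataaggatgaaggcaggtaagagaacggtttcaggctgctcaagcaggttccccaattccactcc

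The second set shows the promoter of Dclk1 (chr3:55046198-55046447, plus strand), where the largest rank difference among the highest start site peaks was found, and 3 distal peaks of high fold in both libraries that do not lie at the start of a neighbouring gene. These are the peak about 15 kb upstream of Dclk1 (chr3:55030846-55031107), the peak about 8 kb upstream of Gfi1b (chr2:28485324-28485623) and the peak in an intron of Pou2f3 about 60 kb from its outer start (chr9:42958398-42958697), all on the plus strand and outside annotated exons.
Dclk1 promoter: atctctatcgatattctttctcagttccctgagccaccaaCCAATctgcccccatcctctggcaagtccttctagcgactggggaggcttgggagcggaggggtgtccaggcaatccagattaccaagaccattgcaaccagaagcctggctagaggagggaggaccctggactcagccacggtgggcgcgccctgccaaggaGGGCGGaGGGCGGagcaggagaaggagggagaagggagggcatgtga
Dclk1 upstream peak: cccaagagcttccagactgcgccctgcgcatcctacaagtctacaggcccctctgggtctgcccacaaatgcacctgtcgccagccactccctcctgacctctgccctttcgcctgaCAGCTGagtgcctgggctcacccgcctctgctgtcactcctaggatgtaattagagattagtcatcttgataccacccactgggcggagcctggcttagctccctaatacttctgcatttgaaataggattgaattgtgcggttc
Gfi1b upstream peak: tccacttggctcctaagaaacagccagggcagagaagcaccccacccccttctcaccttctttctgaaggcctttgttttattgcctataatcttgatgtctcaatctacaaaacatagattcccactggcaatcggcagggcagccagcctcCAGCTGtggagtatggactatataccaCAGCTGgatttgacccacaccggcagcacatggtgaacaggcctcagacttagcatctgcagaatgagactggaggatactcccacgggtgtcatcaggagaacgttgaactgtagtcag
Pou2f3 intronic peak: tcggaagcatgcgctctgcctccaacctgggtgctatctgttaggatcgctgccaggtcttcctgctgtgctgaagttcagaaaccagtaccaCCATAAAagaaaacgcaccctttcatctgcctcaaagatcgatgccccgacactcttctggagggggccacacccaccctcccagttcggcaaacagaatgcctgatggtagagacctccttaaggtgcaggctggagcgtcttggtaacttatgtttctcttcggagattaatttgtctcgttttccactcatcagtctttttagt

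The octamer occurred in 5 of 77 control peaks (6.49%) and in 4 of 66 peaks of Taf4-inactivated enteroids (6.06%) of the tuft cell genes. Of all peaks, 2.11% held it in the control list and 2.20% in the other. The member peaks were wider, with a median of 740 bp against 584 bp for all control peaks, and width was not matched. Besides the 2 windows printed above and 1 further peak of each list that is not reported here, an octamer lay 7 bp inside the Hpgds start in the start site peak of both lists, and 2 octamers lay in a Pou2f3 intronic peak found in control alone (42996536 to 42997743, percentile 18.2). In windows of fixed length, the octamer was present in 0.923% of the central 300 bases of control peaks, in 1.07% of those of Taf4-inactivated enteroids and in 1.62% of the 250 bases upstream of coding genes. No such share was computed for the member peaks, so these values do not compare with the whole-peak shares above. Unlike the octamer, the E-box was common, with 21.3% of the central 300 bases of control peaks holding it. Of the 77 whole control peaks of the tuft cell genes, 34 held the E-box, 16 GATA, 15 AP-1, 7 CDX, 2 HNF4 and 2 GFI1. Of the 66 in the other list, the counts were 28, 9, 10, 5, 1 and 5. For motifs other than the octamer, the share over all whole peaks was not computed. None of the 8 outermost start sites had TATAAA between 40 and 20 bases upstream, a feature of 2.38% of coding genes. A match describes these letters and does not show that a factor was bound.

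Start site peaks were present in the same tuft cell genes in both libraries. Pou2f3, Trpm5, Dclk1, Ptgs1, Hpgds and Alox5 had at least 1 in each list, whereas Gfi1b and Il25 had none in either. Thus 6 of 8 genes had a start site peak in control enteroids, where 68.4% of coding genes did, and 6 of 8 in Taf4-inactivated enteroids, against 65.5% of coding genes. The count in both lists was 6 of 8 against 62.7%, and in neither list 2 of 8 against 28.7%. No tuft cell gene had a start site peak in the control list alone, as 5.7% of coding genes did, or in the Taf4-inactivated list alone, as 2.9% did. Counting every start site of a gene, the 6 genes held 10 start site peaks in each list, and all 10 overlapped between the lists. These shares lie close to those of coding genes in general.

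**Figure D1:**
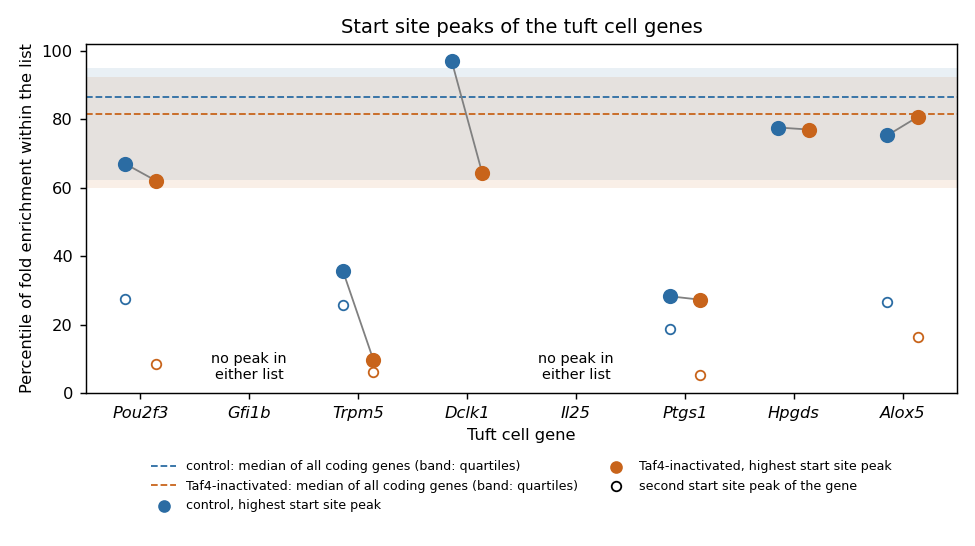
Percentile of the fold enrichment of each start site peak within its own list (vertical axis) for the 8 tuft cell genes, with control peaks in blue and those of Taf4-inactivated enteroids in orange. Filled points are the highest start site peak of a gene, open points a second one, dashed lines the medians of all coding genes with a start site peak (86.5 and 81.5) and bands their quartiles. Dclk1 shows the steepest drop, from 96.9 to 64.2.

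Dclk1, a microtubule-associated kinase, had the highest start site peak of the set in control enteroids and the largest drop in rank after Taf4 inactivation. Dclk1 (ENSMUSG00000027797.8) lies on chromosome 3, 55046448 to 55342986, plus strand. The control peak spanned 55046339 to 55046889, over the first exon, with a fold of 3.09 at percentile 96.9. The peak of Taf4-inactivated enteroids spanned nearly the same bases, 55046342 to 55047005, with a fold of 2.67 at percentile 64.2. Its rank therefore fell by 32.6 points. Among the 14022 coding genes with a start site peak in both lists, 9.07% fell by at least 25 points and the median difference was −2.77 points. Dclk1 was also the single tuft cell gene whose fold itself was lower in Taf4-inactivated than in control enteroids, which held for 4% of the coding genes. Its −log10 p of 10.6 in control came to 6.92 at the depth of the other library, above the 5.77 measured there. The measured value lay below the recomputed one in 2.65% of coding genes. Ranked by −log10 p, the difference was −33.7 points. A second annotated start of Dclk1 at 55265680, 219 kb downstream, from which a shorter coding transcript begins, had no peak in either list.

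The shared distal peaks of the Dclk1 locus differed from each other. The peak 15 kb upstream, whose sequence is printed above, stood at percentile 90.7 in control and at 90.5 after inactivation, with folds of 2.61 and 3.72. Its −log10 p was 7 in control and 11.1 after inactivation. The shared peak downstream of the gene (55391937 to 55392332 in control) went from 70.4 to 24.3, a difference of −46.1 points, with folds of 2.18 and 2.21. Inside the gene body of 296539 bp, control enteroids had 8 intronic peaks and Taf4-inactivated enteroids 5. None of these overlapped a peak of the other list by 1 bp or more. Over the series, 61.5% of all distal control peaks and 48.8% of those of Taf4-inactivated enteroids had no partner. Some of the intronic peaks nearly touched one of the other list, such as 55176168 to 55176506 in control and 55175668 to 55176084 after inactivation. The same held for 55333929 to 55334607 in control and 55334662 to 55335548 after inactivation. The 8 control peaks were 200 to 679 bp wide and ranked between percentiles 21.1 and 83. The highest of them, at 55247645 to 55247845 with a fold of 2.35, was the only peak without a partner around any tuft cell gene to exceed percentile 75 of its list.

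Trpm5, the calcium-activated cation channel at the end of the taste-type cascade, also ranked lower after inactivation. Trpm5 (ENSMUSG00000009246.7) lies on chromosome 7, 150255058 to 150280547, minus strand. Its highest start site peak did not lie at the outermost start but about 7.5 kb inside the gene, over starts annotated only for retained-intron transcripts. This peak stood at percentile 35.7 in control (150272473 to 150273643) and at 9.68 in Taf4-inactivated enteroids (150273078 to 150273467), a difference of −26 points. The peak at the outermost start went from 25.6 to 6.16. The folds were 1.96 and 2.08 for the internal peak. At equal depth the control −log10 p of 3.76 was below the 4.06 measured in Taf4-inactivated enteroids. Most coding genes gave this order, which does not set Trpm5 apart. A lower fold after inactivation was seen in 4% of them and a lower −log10 p than at equal depth in 2.65%. Ranked by −log10 p, the Trpm5 difference was −42.4 points. With protein-coding transcripts alone the difference was −19.4 points, under the 25-point mark. Dclk1 and Trpm5 were thus the 2 of 6 genes that fell by at least 25 points, against 9.07% of coding genes. No tuft cell gene rose by as much, as 5.93% of coding genes did. The 25-point mark was set after the values were seen.

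Of the 7 shared distal peaks around Trpm5, 5 ranked higher by fold after inactivation, all of them at or near the starts of other genes. The share of all shared distal peaks that ranked higher was not computed. The peak at the start of Cd81 went from percentile 45 to 53.2, though by −log10 p its difference was −6.64 points. The shared peak over the last exon of Trpm5 is also the start of the neighbour Tssc4. It went from percentile 46.5 to 85.8, and was the highest distal peak of the locus in Taf4-inactivated enteroids. Of the peaks upstream, the octamer-bearing one (150291372 to 150291698 in control) went from 0.49 to 24, with −log10 p of 3.12 and 6.26. The ones 13 kb and 17 kb upstream went from 7.31 to 34.5 and from 3.66 to 35.1. These 3 lie close to the start of Kcnq1, from which the octamer-bearing peak was 1461 bp away in control. The highest distal peak in control, 27.6 kb upstream, stood at 76.6 and 68.9.

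Pou2f3, the POU factor required for tuft cells, had a peak at both of its starts in both lists, and a shared intronic peak of high rank. Pou2f3 (ENSMUSG00000032015.6) lies on chromosome 9, 42932022 to 43018452, minus strand, with 2 starts for coding transcripts. The inner start, 4.61 kb downstream of the outer one, had the higher peak, which stood at percentile 67 and, after inactivation, 62.1. Folds were 2.15 and 2.63. The outer start had a weaker peak, at 27.5 and 8.61. Ranked by −log10 p, the differences were −12.2 points at the inner start and −23.4 at the outer one. The intronic peak at 42958141 to 42958956 stood at percentile 91.6 in control and at 93.8 after inactivation, where it was the highest distal peak of the locus. Its −log10 p was 8.98 and 17.5, against 5.93 for the control peak at equal depth. In control, the highest distal peak (98.9, against 90.8 in the other list) lay at the start of the neighbour Arhgef12.

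A peak 22 kb upstream of Pou2f3 showed the widest fall in rank of the 43 shared peaks of the set. It spanned 43039894 to 43041239 in control at percentile 78.5 and 43040044 to 43040663 in Taf4-inactivated enteroids at 8.3, a difference of −70.2 points. Its fold was 2.28 and 2.07, and its −log10 p of 4.32 after inactivation was under the 5.41 of the control peak at equal depth. This peak lies 6.66 kb from the start of Oaf and was singled out after its values were seen. The next peak, 17 kb upstream of Pou2f3, stood at 52.8 and 49.4, and the one 38 kb upstream went from 40.4 to 70.7.

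Gfi1b, a zinc finger repressor, had no start site peak, but a strong distal one in both libraries. Gfi1b (ENSMUSG00000026815.8) lies on chromosome 2, 28464970 to 28477502, minus strand. None of its 3 annotated starts had a peak within 1 kb, and the only peak inside the gene was a control peak in an intron (28472366 to 28473532, percentile 26.2). The peak 8 kb upstream stood at percentile 89.4 in control (28484958 to 28485990) and at 86.4 after inactivation (28484703 to 28486024), where it was the highest of the locus. Its −log10 p was 8.46 and 15.7. The printed centre of this peak held 2 E-boxes and none of the other 6 distal motifs. A peak at the start of Tsc1, 19.3 kb upstream, ranked highest in control (92.4, against 79.8 after inactivation).

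Il25, the cytokine by which tuft cells activate innate lymphoid cells, had no start site peak either. Il25 (ENSMUSG00000040770.4) is a gene of 3064 bp on chromosome 14, 55551608 to 55554671, plus strand. Its 250 bases upstream had the lowest ratio of observed to expected CpG of the 8 genes, 0.105, against a median of 0.496 for all coding genes. The only peak overlapping the gene was one over its 3′ end in control alone (55553911 to 55554853, percentile 43.1), which lay 454 bp from the start of Cmtm5. The other 11 control peaks and all 10 peaks of Taf4-inactivated enteroids lay in the gene-dense flanks. The highest, at the start of Pabpn1 38.5 kb upstream, stood at 99 and 96.3.

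At the highest start site peak of each eicosanoid enzyme gene the rank differences were small. Hpgds (ENSMUSG00000029919.4, chromosome 6, 65067287 to 65094902, minus strand) went from percentile 77.6 to 77, with folds of 2.26 and 3.03. Alox5 (ENSMUSG00000025701.6, chromosome 6, 116360095 to 116411196, minus strand) went from 75.3 to 80.7, the only rise of the set, but by −log10 p its difference was −0.283 points. Ptgs1 (ENSMUSG00000047250.6, chromosome 2, 36085946 to 36107792, plus strand) had its highest start site peak at an internal start 12 kb into the gene, at 28.3 and 27.3, and a weaker one at the outermost start, at 18.6 and 5.39. There the difference was −13.2 points by fold and −30.6 by −log10 p. The second start site peak of Alox5, near its 3′ end, went from 26.5 to 16.3. All folds at these start sites were higher in Taf4-inactivated enteroids. This was the common case, as the highest fold was lower in only 4% of coding genes.

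The distal peaks of the enzyme genes differed more than these highest start site peaks. The peak 12 kb upstream of Hpgds fell from 89.8 to 57.6, with folds of 2.56 and 2.55 and −log10 p of 4.49 at equal depth and 4.73 measured. The octamer-bearing peak 17 kb upstream of Ptgs1 went from 6.78 to 57.7, with −log10 p of 4.11 and 8.36, and was the highest distal peak of that locus in Taf4-inactivated enteroids. In control, the highest distal peak of Ptgs1 (36054010 to 36054452, percentile 51.5) had no partner. The peak at the start of March8, 75 kb from the outermost Alox5 start, went from 68.3 to 96.2. The highest distal control peak of Alox5 (116319998 to 116321857) stood at 88 and 70.2.

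**Figure D2:**
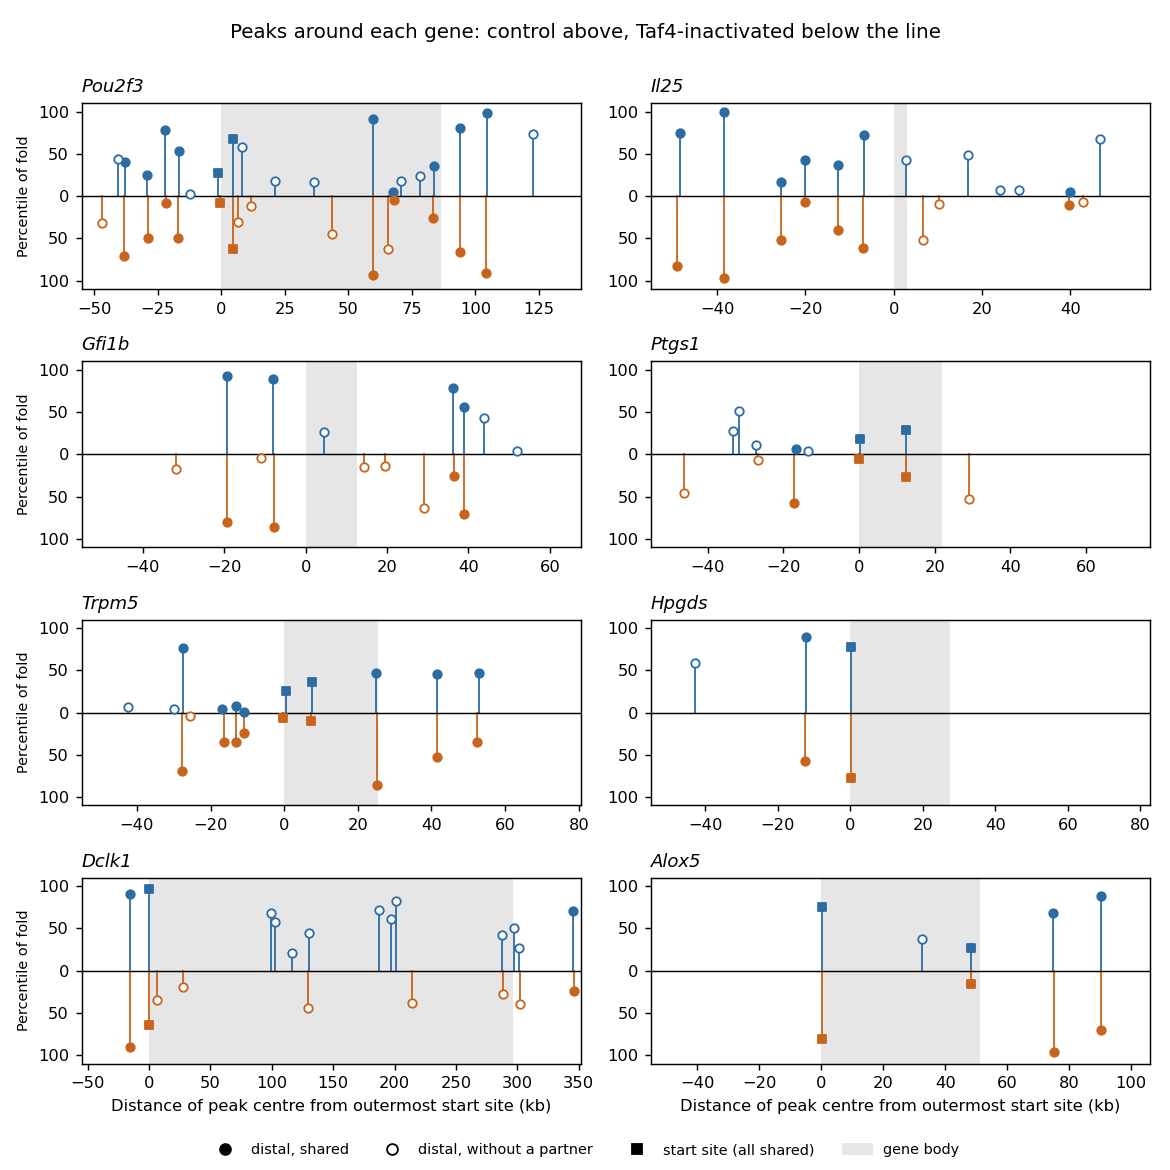
Every peak around the 8 tuft cell genes, placed by the distance of its centre from the outermost start site in kb (horizontal axis, transcription to the right), with the percentile of its fold drawn upward for control and downward for Taf4-inactivated enteroids. Squares are start site peaks, filled circles shared distal peaks and open circles distal peaks without a partner. The distal peaks inside the Dclk1 gene body are all open circles, though some nearly touch a peak of the other list.

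Among the shared peaks of the set, start site pairs mostly ranked lower after inactivation, and distal pairs were nearly even. The difference between these kinds of peak was not tested. Of the 10 start site pairs, 9 ranked lower after inactivation and 1 higher, with a median difference of −11.7 points, and by −log10 p all 10 ranked lower. At the level of genes, 5 of 6 ranked lower, against 65.9% of the coding genes. Of the 33 distal pairs, 18 ranked lower and 15 higher, with a median of −0.874 points. The share of all shared peaks of the series that ranked lower was not computed for either kind. Pairs of 1 gene share its locus and are not independent. The fold was lower after inactivation in 4 of the 43 pairs, the start site of Dclk1 and the distal peaks 22 kb upstream of Pou2f3, 36 kb downstream of the Gfi1b start and 12 kb upstream of Hpgds. Over the series, 6.17% of shared control peaks had a partner with a lower fold. The −log10 p was below that of the control peak at equal depth in 2 of the 43, at the Dclk1 start and 22 kb upstream of Pou2f3, against 4.31% of shared control peaks.

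**Figure D3:**
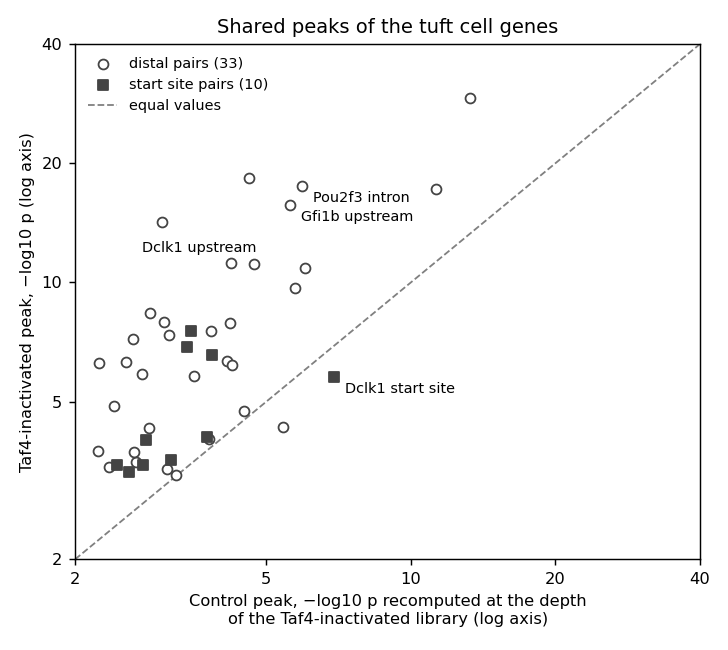
The 43 shared peaks of the tuft cell genes, with the −log10 p of the control peak recomputed at the depth of the Taf4-inactivated library (horizontal axis) against the −log10 p measured in that library (vertical axis), both on log axes. Squares are start sites, circles distal peaks and the dashed line equal values. The Dclk1 start site, at 6.92 and 5.77, is the only square below the line.

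Distal peaks without a partner made up 34 of 67 in control and 23 of 56 in Taf4-inactivated enteroids. Some of these distal peaks sit at the starts of neighbouring genes. Away from every annotated start, 28 of 47 control peaks had no partner (59.6%, exact Clopper-Pearson 95% interval 44.3 to 73.6%), against the 61.5% of all distal control peaks. For Taf4-inactivated enteroids it was 20 of 39 (51.3%, 34.8 to 67.6%), against 48.8% of all distal peaks. Intervals cover counting error only. Both shares were near those of the series. Peaks without a partner were narrow, with a median width of 602 bp against 1033 bp for shared ones in control, and 325 bp against 876 bp in Taf4-inactivated enteroids. The −log10 p of the control peaks without a partner was also recomputed at the depth of the other library, with the fold kept. For 22 of the 34 it came to under 2.87, the lowest of that library's list. Among shared control peaks, 6.17% had a partner with a lower fold, so keeping the fold may set this value too low. The share over all control peaks without a partner was not computed, and depth as a cause was not tested. Dclk1 peaks without a partner numbered 10 of 12 in control and 6 of 8 in Taf4-inactivated enteroids, and those of Ptgs1 4 of 5 and 3 of 4. Of the Trpm5 peaks, 2 of 9 and 1 of 8 had none.

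**Figure D4:**
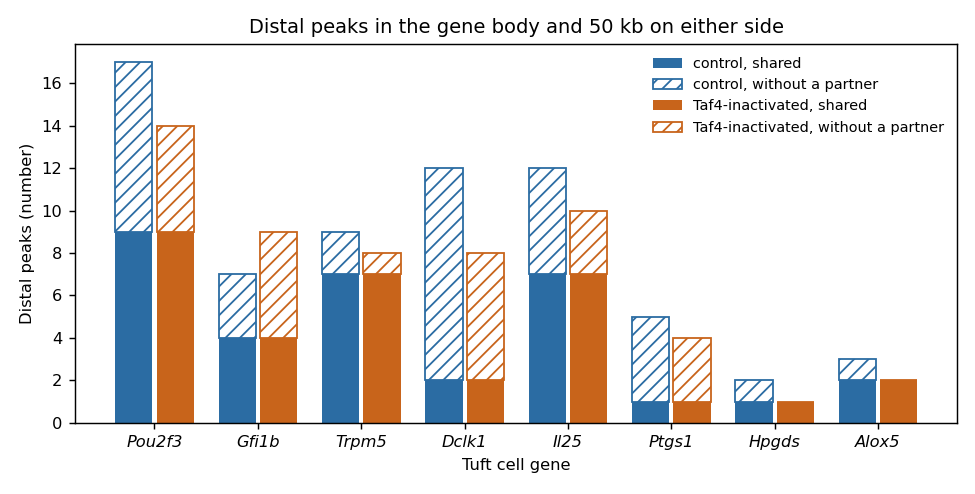
Number of distal peaks in the gene body and 50 kb on either side for each tuft cell gene (vertical axis), control in blue and Taf4-inactivated enteroids in orange. Solid bars are peaks shared by both libraries and hatched bars those without a partner. Gfi1b is the only gene with more distal peaks after inactivation, 9 against 7.

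Other genes known in tuft cells were read in the same way. Of 34 further tuft cell genes, 33 were found in the annotation, of which 23 had a start site peak in control and 20 in Taf4-inactivated enteroids, against the 68.4% and 65.5% of coding genes. In the control list alone were 4 of the 33, against 5.7% of coding genes. These were Alox5ap, the activating protein of 5-lipoxygenase, at percentile 72.3, Lrmp at 69.9, Sh2d6 at 62.7 and the ETS factor Spib at 1.39. At equal depth the Spib peak alone of these would have been under the lowest −log10 p of the other list. Avil, an actin-binding protein, had a start site peak in the Taf4-inactivated list alone, at 0.768. Of the 19 genes with a peak in both lists, 13 ranked lower and 6 higher, close to the 65.9% of coding genes that ranked lower. Their median difference was −8.97 points, and none had a lower fold, against 4% of coding genes. A fall of at least 25 points was seen in 5 of the 19 (Chat, Sox9, Hmx3, Sox4 and Espn), against the 9.07% of coding genes given above, and a rise of that size in none. Ranked by −log10 p, Sox9 and Sox4 differed by −19 and −13.5 points, under that mark.

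By role, 5 of the 6 transcription factors with peaks in both lists ranked lower, against the 65.9% of coding genes, among them Hmx2 (83.9 to 59.7), Runx1 (83.9 to 74.9) and Sox4 (74.8 to 49), whereas Nfatc1 went from 90.7 to 96.4. The taste-type signalling genes with a peak in both lists, the inositol trisphosphate receptor Itpr3 (52.1 to 67.9), the phospholipase Plcb2 (17.3 to 29.3) and the G protein subunit Gng13 (0.63 to 7.94), ranked higher by fold, though Plcb2 ranked 6.42 points lower by −log10 p. Chat, which makes acetylcholine, went from 37.9 to 3.06 and Ltc4s, the leukotriene C4 synthase, from 31.8 to 34.9. The cytokine receptors Il13ra1 (98.3 to 96.3), Il17rb (89.1 to 79.3) and Il4ra (75.7 to 78.8) kept high ranks. Of the cytoskeletal and other genes, Ptpn6 went from 95.3 to 90.5, Cd24a from 86.8 to 63.7 and Espn from 67.5 to 27.5. The sensory G protein Gnat3 and the succinate receptor Sucnr1 had no start site peak in either list.

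**Figure D5:**
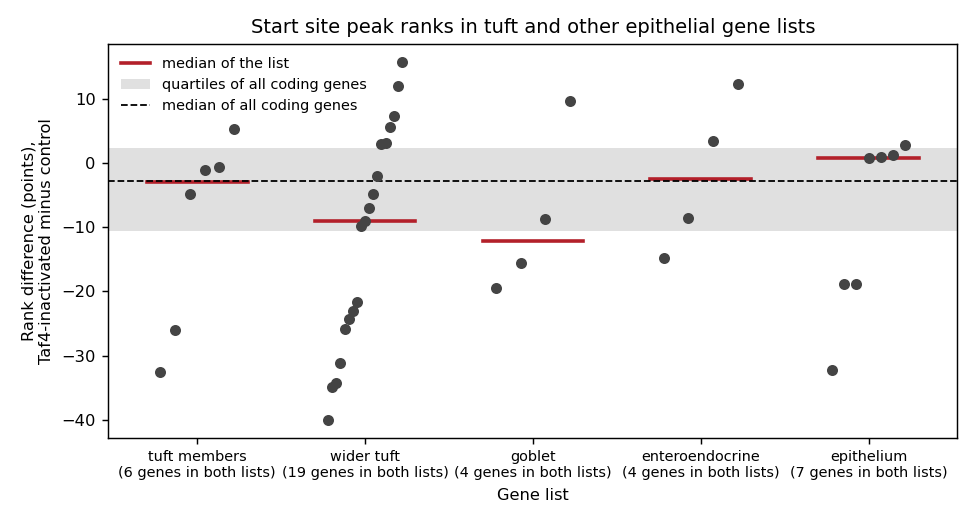
Rank difference of the highest start site peak, Taf4-inactivated minus control, in points (vertical axis), for each gene with a peak in both lists, by gene list. Red bars are the medians of the lists, the dashed line the median of all coding genes (−2.77) and the grey band their quartiles. The median was −2.94 for the 8 genes described here and −8.97 for the wider tuft cell list.

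Several of these genes are also used by other cells, so markers of such cells were read the same way. Of all coding genes, 68.4% had a start site peak in control and 65.5% in Taf4-inactivated enteroids. Of 8 goblet cell genes, 6 had a start site peak in control and 5 in Taf4-inactivated enteroids, and of 8 enteroendocrine genes 6 and 6. Their median rank differences, over 4 genes each, were −12.2 and −2.51 points. General epithelial genes had a start site peak in 7 of 8 and 8 of 8, at a median percentile of 90.5 in control. Their median rank difference over 7 genes was 0.798 points, though Krt18 went from 68.7 to 36.4. Of 8 leukocyte genes, 3 had a start site peak in control, between percentiles 10.7 and 59.3, and 2 in Taf4-inactivated enteroids. Itgam and Coro1a, with a peak in both lists, went from 59.3 to 29.4 and from 42.9 to 10.3. The defining genes Ptprc, Cd3e and Csf1r had none in either list. Of 8 mast cell and megakaryocyte genes, 5 and 4 had a start site peak, at median percentiles of 82.8 and 68.5. Kit went from 89.5 to 64.6, Itga2b from 84.2 to 90.8, Hdc from 64.2 to 72.4 and Gp9 from 40.7 to 38.7. Pf4 had a peak in control alone, at 82.8. The mast cell proteases Cpa3 and Mcpt4, and Ms4a2, had none in either list. Mesenchymal genes had a start site peak in 6 of 8 and 5 of 8, and 3 of them, Pdgfra, Vim and Des, fell by at least 25 points, against the 9.07% of coding genes. Their part in the values of the tuft cell genes was not tested.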

How the data were processed

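The peak lists of 2 libraries from ATAC-seq, grouped by the genotype in the labels, were used. Per the submitters' processing notes, bcl2fastq 2.17.1.14, Bowtie 1.0.0 and MACS2 2.1.1 were used. The authors mapped reads to mm9, kept those mapping once and ran the broad peak caller on each library by itself, with no model and with extended reads. The deposited fold is the enrichment ratio over that library's background, and the deposited −log10 p and −log10 q are averages over a peak. The handling of duplicate and mitochondrial reads and the number of mice behind a library are not given in the sources used here.

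Positions were made 1-based and joined to the GENCODE annotation of mm9. All peak ends lay within its chromosomes. Peaks overlapping by at least 1 bp were shared. Analyses used Python 3.11.15, numpy 2.4.6, pandas 2.3.3, scipy 1.17.1, pysam 0.24.0 and matplotlib 3.10.9. Read totals were not used here. For relative depth, the background that gives both the fold and the Poisson p was solved for the narrowest 10% of peaks, and its 5th percentile was used (12.1 against 7.35 reads). Overlap, start site lookup and depth were tested on simulated data, and 0 of 3 steps failed. Sequences were read from the mm9 reference genome.

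The members, gene lists, motifs and alternatives were chosen with earlier results of these data known. All 8 genes were named, with the highest distal peak of each in each list and peaks without a partner above percentile 75. Further tuft cell genes were named when found in 1 list alone, and up to 4 others per role. Other peaks and genes were singled out after their values were seen, as was the 25-point mark. Alternatives changed the q threshold, list length, start site distance, flank, overlap, transcripts and ranking value. With 1 library per genotype no test between genotypes was made. Some genes and 1 sequence window are not reported here.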

Additional observations from a re-analysis of the deposited data

How the results depend on the processing

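The number of genes with a start site peak was 6 in each list in the main setting, 8 and 6 with a start site distance of 5 kb, and 1 and 1 with −log10 q of at least 5. Distal peaks, 67 in control and 56 in Taf4-inactivated enteroids, numbered 36 and 34 with −log10 q of at least 2, 7 and 15 with at least 5, 32 and 29 in the top 40000 peaks, 25 and 22 with a flank of 10 kb and 115 and 95 with 100 kb. The share without a partner, 50.7% and 41.1%, was 14.3% and 60% with −log10 q of at least 5, so that its order between the lists turned, 72% and 68.2% with a flank of 10 kb and 70.1% and 64.3% when 50% of both peaks had to overlap. The cause was not tested, except that stricter settings leave fewer peaks, and the turned order rests on 7 and 15 distal peaks. The same counts and shares over all coding genes or all peaks are not given for these settings. The values therefore do not set the tuft cell genes apart. Over counts, shares and depth, 29 of 47 alternatives gave a like value. Ranked by −log10 p, the Alox5 start site difference of 5.39 points turned to −0.283, that of Pou2f3 moved to −12.2 and that of Trpm5 to −42.4. With protein-coding transcripts alone, an alternative chosen after seeing the data, Trpm5 had −19.4 and Ptgs1 −13.2 points, and Dclk1 kept −32.6. No paired analysis was possible because each genotype had 1 library, and none could be left out. The shallower Taf4-inactivated library limits what its list can hold, so a peak missing there is not shown to be closed.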
